A study of Homo sapiens with 15 samples.

Results

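The RNA of 52 RAB genes was measured in LNCaP cells, a human line of prostate cancer that responds to androgen, stimulated with androgen in the presence or absence of the androgen receptor antagonist enzalutamide. The members were all rows of the expression table whose gene symbol is RAB followed by a number and at most a letter from A to D, which picked 52 of 17272 genes by symbol alone. The cells of all 15 libraries were kept for 2 days in medium with charcoal-stripped serum and then received the synthetic androgen R1881 at 1 nM for 22 h, with the solvent DMSO in 10 libraries and with enzalutamide at 2 µM in 5 libraries. The study's methods text gives the group sizes in the reverse order, and the sample labels were followed here. The group names R1881 + DMSO and R1881 + enzalutamide are used below. Neither group was without androgen, so the comparison is between stimulated cells with and without the antagonist. All samples came from a single cell line. The study calls the libraries biological replicates, but the labels do not say whether each came from a separate culture, and p-values cover only the spread between these libraries.

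RAB proteins are small GTPases that mark the membranes of the cell and direct the vesicles that move between them. Exchange factors load a RAB with GTP, GTPase-activating proteins switch it off, and in the GTP-bound state it recruits effectors such as motors and tethers. A prenyl lipid tail anchors it in the membrane, and RABs that share a number are close paralogs that often serve the same transport step. The luminal prostate epithelium is a secretory tissue, so the RABs of exocytosis belong to the machinery by which such cells release their products.

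The libraries held between 15830745 and 25416052 reads on the genes of the table, recovered from the deposited values. All 10 luminal prostate markers examined were present, and their summed CPM (read counts scaled to library size, as in the deposited table) was 8301 to 9574 in R1881 + DMSO and 4072 to 4206 in R1881 + enzalutamide. The androgen-driven KLK3 had a mean of 1588 CPM in R1881 + DMSO and 134 CPM in R1881 + enzalutamide. Of the markers of other cell types, 0 of 5 for leukocytes had a row, KRT14 was the only 1 of 4 basal markers with a row, at up to 1.44 CPM, and 1 of 4 endothelial markers stood at 2.08 to 3.35 CPM. The 3 fibroblast markers with a row summed to 6.36 to 10.5 CPM in R1881 + DMSO and to 21.2 to 26.7 CPM in R1881 + enzalutamide, and their part in the results below was not tested. In GENCODE v44, 18 RAB genes overlap another gene on the same strand and 33 overlap one on the other strand, and the use of strand in counting is not stated. In bulk RNA, fewer cells of a type and less RNA per cell cannot be told apart.

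Promoter sequences of RAB genes whose RNA moved are shown first, since the R1881 and enzalutamide treatments act on a DNA-binding receptor. The androgen receptor binds as a dimer to inverted repeats of the half-site AGAACA. RefSeq (GRCh38.p14) gave 56 promoters for 41 of the 52 RAB genes, taken here as the 250 bases before an annotated start. On either strand, AGAACA stood in 8 of the 56 (14.3%), in 12.4% of all 35116 RefSeq promoters and in 7.95% of the 14383 promoters of tested genes. The complete repeat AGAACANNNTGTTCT was in 0 of the 56 and in 1 of the 35116. The E-box CACGTG, bound by basic helix-loop-helix factors such as MYC and TFEB, was in 5 of the 56 (8.93%), against 6.34% of all promoters and 8.22% of those of tested genes. No match in these windows says nothing about binding elsewhere.

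Whole promoters are printed for RAB3B, which fell, and for its fellow exocytic gene RAB27B, which rose, from the farthest upstream RefSeq start. RAB27A and RAB4A moved more than RAB27B, but the matching windows of both overlap annotated exons, so only short stretches of these genes are given further on. RAB3B lies on the reverse strand at chr1:51990701-51990950 (GRCh38.p14) and RAB27B on the forward strand at chr18:54717607-54717856. Both are printed 5′ to 3′ in the direction of transcription, without capitals because neither holds any of the motifs.
RAB3B promoter: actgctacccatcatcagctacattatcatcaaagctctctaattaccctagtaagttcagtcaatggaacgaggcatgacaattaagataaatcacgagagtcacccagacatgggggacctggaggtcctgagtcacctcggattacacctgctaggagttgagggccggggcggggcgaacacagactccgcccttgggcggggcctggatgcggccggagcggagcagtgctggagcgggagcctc
RAB27B promoter: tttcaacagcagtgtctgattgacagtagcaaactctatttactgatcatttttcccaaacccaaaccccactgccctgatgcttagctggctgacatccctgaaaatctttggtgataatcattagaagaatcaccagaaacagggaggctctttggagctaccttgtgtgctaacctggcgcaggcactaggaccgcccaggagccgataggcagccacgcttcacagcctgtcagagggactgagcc

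The 8 promoters with a half-site belonged to 7 genes. They were alternative, internal promoters of both RAB27 genes, a promoter of RAB30, promoters of RAB23 (log2 fold change 0.17), RAB2B (-0.12) and RAB40B (0.14), whose changes were small, and 2 promoters of RAB13, which did not pass the test described below. The half-sites of the 3 genes with larger changes are printed. The positions given are those of the printed 30-base stretches. The RAB27A half-site lies 210 bases before its start, within chr15:55270592-55270621 on the reverse strand. That of RAB27B lies 236 bases before its start, within chr18:54828229-54828258 on the forward strand. That of RAB30 lies 61 bases before its start, within chr11:83071506-83071535 on the reverse strand. The E-box of RAB4A lies 102 bases before its start, within chr1:229270997-229271026 on the forward strand. The other E-boxes stood in promoters of RAB5A (log2 fold change -0.33), RAB24 (0.44), RAB21 (-0.071) and RAB31 (0.24). RAB21 and RAB31 did not pass the test. In each 30-base stretch the capitals mark the motif, which may be on either strand.
RAB27A half-site: caagaaaacaaaTGTTCTactgttttgatt
RAB27B half-site: caaagaaaacacAGAACAaaaatgaataaa
RAB30 half-site: gggtcactgcaaAGAACAactccagcaacc
RAB4A E-box: gcccagcccgcgCACGTGcttccggcgcgc

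A wider search for the complete repeat, over each gene body and 10 kb on either side (GRCh38, GENCODE v44), found no full match at any of the 52 RAB genes, while 223 of 13790 tested genes with a GENCODE symbol (1.62%) had a full match. With at most 1 difference from the 12 fixed bases, 11 of 52 RAB genes (21.2%) and 25.9% of all had a match. Per Mb searched there were 3.69 such matches at RAB genes and 4.89 at all genes. RAB27A, RAB3B, RAB4A, RAB3D and RAB27B had none, and RAB28 and RAB30 had 1 each. The other genes with a match were RAB31 with 3, and RAB10, RAB11A, RAB11B, RAB12, RAB18, RAB1C, RAB21 and RAB2B with 1 each. Of these, RAB31, RAB11B, RAB18 and RAB21 did not pass the test described below. The RAB28 match was intronic, at chr4:13380794-13380808 on the reverse strand, and differed from the motif by A1T, counted from 1 at the motif's 5′ end. That of RAB30, at chr11:82977633-82977647 on the reverse strand, was in a UTR and differed by T12C. In the RAB28 and RAB30 matches, the 15 bases of the site are in capitals.
RAB28 intron: taagtttTGAACATAATGTTCTaatgtaaa
RAB30 UTR: AGAACAAGATGCTCT

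Enzalutamide was accompanied by less RNA of 22 RAB genes and more RNA of 18, with 12 not past the test, where 62.5% of all genes tested were called in either direction (limma on log2(CPM + 0.5), Benjamini-Hochberg adjusted p under 0.05 over 17046 genes). The share of lower RAB genes was 42.3%, against 32.7% of all genes tested, and that of higher RAB genes was 34.6%, against 29.8%. With the library totals set equal in place of the deposited scaling, the counts became 17 lower and 22 higher RAB genes, and over all genes 4288 lower and 6629 higher in place of 5577 and 5083. No library of either group reached the range of the other for 17 lower (32.7%, against 20.1% of all genes) and 12 higher RAB genes (23.1%, against 17.1%).

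Most of these differences were small. The median log2 fold change was -0.08 over the RAB genes and -0.01 over all genes, and the median absolute value was 0.26 and 0.24. Of the 40 called RAB genes, 25 had an absolute log2 fold change under 0.5. Changes of at least 2-fold were seen for 3 lower RAB genes (5.77%, against 4.19% of all genes), which were RAB27A, RAB3B and RAB4A, and for 1 higher RAB gene (1.92%, against 3.26%), which was RAB37. The summed level of all RAB genes was 4525 ± 81.8 CPM (SD, n = 10) in R1881 + DMSO and 3907 ± 62.6 CPM (n = 5) in R1881 + enzalutamide, or 0.425% and 0.391% of the library totals.

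**Figure D1:**
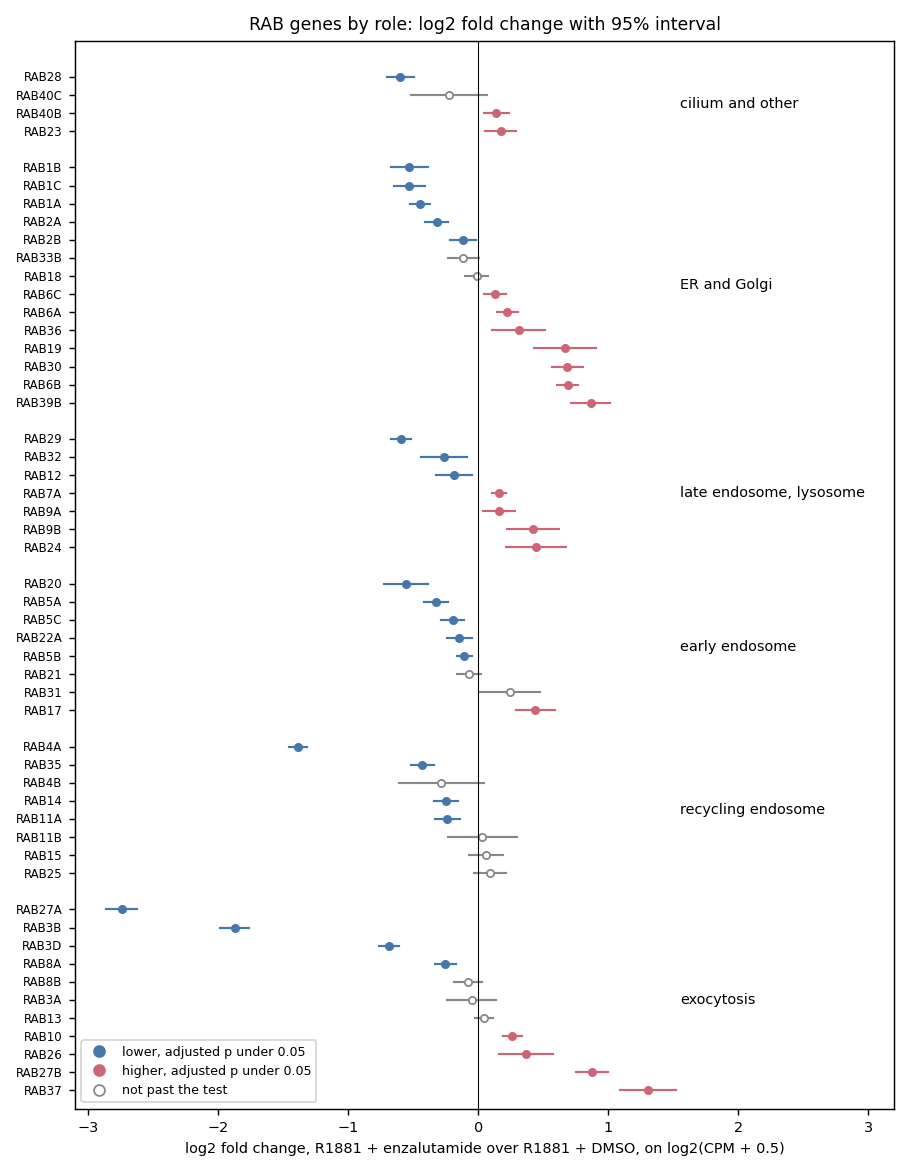
Log2 fold change of each of the 52 RAB genes (x axis, R1881 + enzalutamide over R1881 + DMSO, on log2(CPM + 0.5)) with its 95% interval from limma, grouped by role on the y axis; blue marks 22 lower genes, red 18 higher genes, and open grey circles 12 genes not past the test. RAB27A, RAB3B and RAB4A lie farthest to the left and RAB37 farthest to the right.

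The exocytic RABs held the widest range of changes. Of these 11 genes, 4 were lower, 4 higher and 3 not past the test, against 32.7% lower and 29.8% higher over all genes. RAB27A, which docks secretory lysosomes, melanosomes and exosome-bearing endosomes at the plasma membrane, fell most of all RAB genes. Its RNA ranged from 71.4 to 90.9 CPM in R1881 + DMSO, with a median of 78.9, and was 11.6, 10.2, 11.7, 11.5 and 12.2 CPM in the R1881 + enzalutamide libraries, the latter resting on a median of 255 reads. Every enzalutamide library was far below every R1881 + DMSO library. The mean fell 6.95-fold, from 79.5 ± 6.44 CPM (SD, n = 10) to 11.4 ± 0.720 CPM (n = 5), for a log2 fold change of -2.74 (SE 0.056, limma adjusted p = 5.87e-20), which was the 79th lowest among 17046 genes.

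RAB27B, the close paralog of RAB27A in secretion, moved the other way. It ranged from 21.8 to 26.6 CPM with a median of 26.0 in R1881 + DMSO and was 47.0, 40.3, 44.7, 51.1 and 51.4 CPM in R1881 + enzalutamide. The groups did not overlap, and the mean was 1.85-fold higher, with a log2 fold change of 0.87 (SE 0.058, limma adjusted p = 3.26e-11).

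RAB3B and RAB3D, which tether secretory vesicles for regulated release, both fell. RAB3B ranged from 192 to 242 CPM with a median of 223 in R1881 + DMSO and was 61.6, 56.7, 55.7, 62.2 and 62.8 CPM with enzalutamide, a 3.69-fold lower mean (log2 fold change -1.87, SE 0.053, limma adjusted p = 1.55e-17). RAB3D ranged from 119.5 to 136 CPM with a median of 126 and was 81.5, 79.4, 79.9, 74.1 and 79.2 CPM with enzalutamide (log2 fold change -0.69, SE 0.035, limma adjusted p = 4.70e-13). Neither gene's groups overlapped. RAB3A, the paralog best known from synaptic vesicles, had means of 17.8 and 17.1 CPM and did not pass the test (95% interval of the log2 fold change -0.24 to 0.14).

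RAB37, a RAB of secretory granules, was the RAB gene with the highest fold change. It had 1.32 to 2.30 CPM with a median of 1.77 in R1881 + DMSO and 5.31, 4.70, 5.37, 5.30 and 4.55 CPM with enzalutamide, without overlap. The mean was 2.86-fold higher (log2 fold change 1.30, SE 0.10, limma adjusted p = 5.95e-10). RAB37 was scarce, and its median library held 35 reads in R1881 + DMSO and 116 with enzalutamide.

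The other exocytic members moved less. RAB8A, which carries cargo from the Golgi to the surface and the cilium, was lower (log2 fold change -0.25), and RAB10, which delivers GLUT4 and basolateral cargo, was higher (0.26). RAB26, a RAB of secretory granules, was higher (0.37) with overlapping groups. RAB8B (-0.081) and the tight junction RAB13 (0.046), which shares 56.9% of the 50-base words of its transcripts with other genes, did not pass the test.

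**Figure D2:**
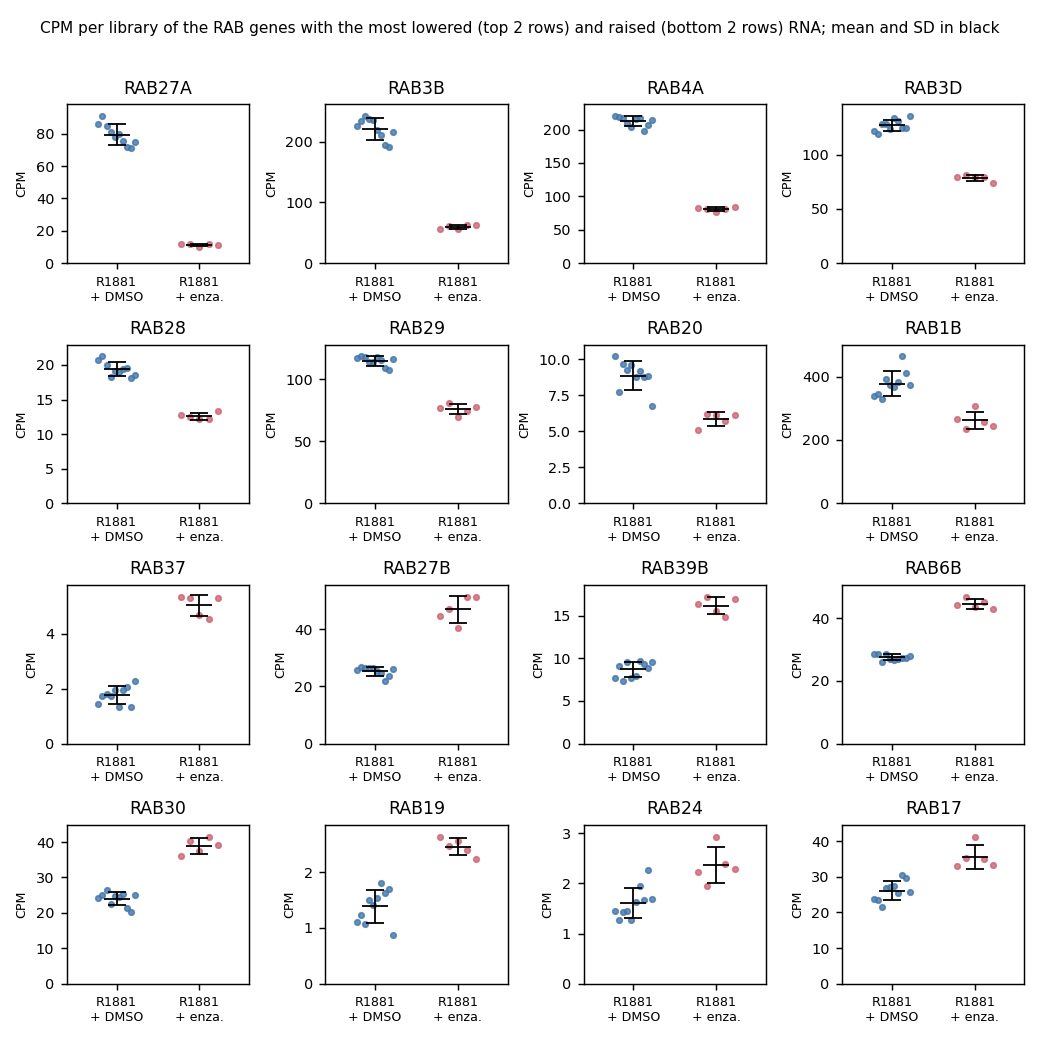
CPM (y axis) of every library in R1881 + DMSO (blue, n = 10) and R1881 + enzalutamide (red, n = 5) for the 8 RAB genes with the lowest and the 8 with the highest log2 fold change among those past the test; black marks show the mean and SD. The groups are apart for all of the 16 but RAB24.

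The RABs of the recycling endosome, which return receptors to the surface, had 4 of 8 lower, 0 higher and 4 not past the test, against 32.7% lower and 29.8% higher over all genes, and a median log2 fold change of -0.24 (-0.01 over all genes). RAB4A, which acts in the fast recycling route, ranged from 197 to 220.1 CPM with a median of 216 in R1881 + DMSO and was 81.1, 76.2, 82.8, 83.9 and 81.8 CPM in R1881 + enzalutamide. The groups were apart, and the mean fell 2.62-fold (log2 fold change -1.38, SE 0.033, limma adjusted p = 7.53e-19). RAB35 (-0.43), RAB14 (-0.25) and RAB11A (-0.24), the last a RAB of slow recycling, also fell, each without overlap between the groups. RAB25, the epithelial member of the RAB11 family, was at 81.9 ± 6.54 CPM (n = 10) and 87.3 ± 8.14 CPM (n = 5) and did not pass the test. RAB15 (0.060), RAB11B (0.033) and RAB4B (-0.28) were likewise not called, although RAB15 (0.15) and RAB25 (0.18) were called higher when library totals were set equal, and every 50-base word of the RAB4B transcript is shared with readthrough transcripts.

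Of the 8 early endosome RABs, 5 were lower, 1 was higher and 2 were not past the test. Over all genes, 32.7% were lower and 29.8% higher. All 3 RAB5 genes, which drive fusion of early endosomes, were lower, with log2 fold changes of -0.33 for RAB5A, -0.20 for RAB5C and -0.11 for RAB5B. RAB5C shares 43.9% of its transcript words with an overlapping gene. RAB20, a RAB of endosomes and phagosomes, fell more, from 6.77 to 10.2 CPM with a median of 8.98 to 6.19, 6.14, 5.09, 6.11 and 5.72 CPM (log2 fold change -0.55, SE 0.082, limma adjusted p = 5.60e-06). RAB22A was lower by a small margin (-0.14) with overlapping groups, and the calls of RAB22A and RAB5B were lost with equal library totals. RAB17, an epithelial RAB of transcytosis, rose from 21.6 to 30.6 CPM with a median of 26.2 to 35.1, 41.2, 33.1, 33.4 and 35.0 CPM (log2 fold change 0.44, SE 0.072, limma adjusted p = 1.95e-05). RAB21 (-0.071) and RAB31 (0.24) did not pass the test.

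All 7 RABs of the late endosome, the lysosome and related organelles passed the test, 3 lower and 4 higher, where 62.5% of all genes passed it, and RAB32, RAB12 and RAB9A lost the call in some alternatives. RAB29, which recruits the kinase LRRK2 to membranes, fell from a median of 116 CPM (108 to 118) to 80.7, 69.3, 76.4, 77.9 and 74.7 CPM, without overlap (log2 fold change -0.60, SE 0.037, limma adjusted p = 9.58e-12). RAB32 (-0.26), a RAB of melanosome biogenesis, and RAB12 (-0.19) were lower with overlapping groups. RAB7A, the principal RAB of late endosomes, chosen for its library values after they were seen, was slightly higher, with 251 to 268 CPM in R1881 + DMSO and 298, 285, 290.4, 286 and 289.9 CPM with enzalutamide (log2 fold change 0.16, SE 0.026, limma adjusted p = 2.38e-05).

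RAB9A (0.16) and RAB9B (0.42), which serve transport from late endosomes to the Golgi, were higher. RAB24, which has been linked to autophagy, had 1.27 to 2.26 CPM with a median of 1.54 in R1881 + DMSO and 1.95, 2.93, 2.23, 2.29 and 2.39 CPM with enzalutamide, so the groups overlapped (log2 fold change 0.44, SE 0.11, limma adjusted p = 0.00143). Of the 50-base words of its transcripts, 57.1% also occur in transcripts of its neighbour MXD3, so that reads of the pair may not be told apart.

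The 14 RABs of ER and Golgi traffic moved in both directions, with 5 lower, 7 higher and 2 not past the test. The shares over all genes were 32.7% lower and 29.8% higher. The lower ones were the RAB1 and RAB2 genes, which act between the ER and the Golgi. RAB1B ranged from 330.1 to 464 CPM with a median of 373 in R1881 + DMSO and was 236, 308, 265, 243 and 255 CPM with enzalutamide (log2 fold change -0.53, SE 0.068, limma adjusted p = 9.11e-07), without overlap. RAB1A (-0.45) and RAB2A (-0.32) followed, and RAB2B was barely lower (-0.12). RAB1C, annotated as a pseudogene, was lower by as much as RAB1B (-0.53), with which it shares 15.6% of its words.

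Among the higher ones were 2 genes best known from neurons. RAB39B, whose loss causes intellectual disability, went from 7.37 to 9.68 CPM with a median of 8.98 to 17.2, 15.5, 16.3, 16.9 and 14.8 CPM (log2 fold change 0.86, SE 0.073, limma adjusted p = 1.67e-09). RAB6B, the neuronal paralog of the Golgi protein RAB6A, went from 25.9 to 28.7 CPM with a median of 27.3 to 46.9, 43.5, 44.1, 42.8 and 45.3 CPM (log2 fold change 0.69, SE 0.039, limma adjusted p = 2.24e-12). The groups were apart for both genes.

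RAB30, a Golgi RAB, went from 20.3 to 26.5 CPM with a median of 24.7 to 40.2, 37.4, 36.2, 39.2 and 41.5 CPM (log2 fold change 0.69, SE 0.058, limma adjusted p = 1.86e-09). RAB19 was scarce, with 0.879 to 1.81 CPM and a median of 1.46 in R1881 + DMSO and 2.47, 2.56, 2.64, 2.25 and 2.39 CPM with enzalutamide (log2 fold change 0.67, SE 0.11, limma adjusted p = 3.36e-05). Both were without overlap. RAB36 (0.31), RAB6A (0.22) and RAB6C (0.13) were higher by less, and RAB18 (-0.013) and RAB33B (-0.11) did not pass the test. RAB6C shares 56.3% of its words with other genes, RAB6A and RAB6D among them, so its value may hold reads of RAB6A.

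Among the remaining 4, RAB28, a RAB of the cilium, fell from 18.1 to 21.2 CPM with a median of 19.3 to 12.5, 12.1, 12.7, 13.4 and 12.2 CPM, without overlap (log2 fold change -0.60, SE 0.050, limma adjusted p = 1.11e-09). RAB23, a negative regulator of hedgehog signalling (0.17), and RAB40B, part of a ubiquitin ligase (0.14), were slightly higher. RAB40C (-0.22) did not pass the test.

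Each of the 16 genes with the 8 lowest and the 8 highest fold changes among those called was called in the same direction in all alternatives in which it was tested. Of the other called genes, RAB32, RAB12, RAB22A, RAB2B, RAB5B, RAB40B, RAB9A, RAB23, RAB36 and RAB26 lost their call in at least 1 alternative, RAB2B in 14 of 28. With equal library totals, the calls of RAB32 (-0.17), RAB12 (-0.09), RAB22A (-0.05), RAB2B (-0.03) and RAB5B (-0.01) were lost. For 27 called RAB genes, a two-sided exact permutation test over the 3003 ways of choosing 5 of the 15 libraries gave p = 0.000333, the smallest the test can give. Only genes whose groups do not overlap can reach this value, so it adds little to the counts without overlap given above. Its share over all genes was not computed.

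In the labels, R1881 + DMSO libraries carry numbers from 51 to 55 and from 71 to 75 with no meaning stated, and these series were therefore compared with each other. The R1881 + enzalutamide libraries are numbered from 81 to 85, so any difference that goes with that series cannot be told apart from the treatment. Only RAB3B of the 52 RAB genes differed between the R1881 + DMSO series (1.92%, against 3.29% of 16810 genes). It had 235 CPM in libraries 51 to 55 and 207 CPM in libraries 71 to 75 (log2 fold change -0.19, limma adjusted p = 0.029). The count ranged from 0 to 3 when single libraries were left out. The median absolute difference between the series was 0.09 on the log2 scale over the RAB genes. The largest was 0.45, for the uncalled RAB4B (limma adjusted p = 0.054), and RAB27A differed by -0.17 (limma adjusted p = 0.056). Of the called genes RAB24 differed most (0.31). Its log2 fold change with enzalutamide was 0.60 against libraries 51 to 55 and 0.29 against libraries 71 to 75. All 40 called RAB genes kept their direction against each series alone, RAB27A with log2 fold changes of -2.83 and -2.66. The calls came from both series pooled and the same enzalutamide libraries were used again, so this agreement was largely fixed in advance.

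RABs that share a number were then compared as 19 pairs, asking whether the change with enzalutamide was unequal. The ratio of the 2 genes was taken in each library and compared between the groups by a two-sided exact permutation test, with Benjamini-Hochberg adjustment over the pairs. Of the 19 pairs, 11 changed unequally, 12 had both genes called in the same direction and 1, RAB27A and RAB27B, had them called in opposite directions. No share was computed for pairs of other genes, and 62.5% of all single genes were called in either direction. Genes of RAB1, RAB3, RAB5 and RAB6 stand in more than 1 pair each, so the pairs are not independent. The pairs of the pseudogene RAB1C and of RAB6C all count as called in the same direction, and those of RAB6C also as unequal. RAB1C shares 15.6% of its words with RAB1B, and RAB6C shares 56.3% with other genes. The values of RAB1C and RAB6C may therefore hold reads of other genes, and RAB4B shares 100% of its words with readthrough transcripts.

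The log2 ratio of RAB27A to RAB27B was 1.63 ± 0.080 (SD, n = 10) in R1881 + DMSO and -1.99 ± 0.089 (n = 5) in R1881 + enzalutamide, a difference of -3.62 (SE 0.047, exact permutation p = 0.000333, adjusted p = 0.000703). RAB27A gave 75.8% of the RAB27 reads in R1881 + DMSO and 19.7% with enzalutamide. Per kilobase of canonical transcript, RAB27A stood at 23.1 and RAB27B at 3.61 CPM/kb in R1881 + DMSO, and at 3.32 and 6.70 CPM/kb with enzalutamide, so the order of the levels turned. The summed RAB27 level was 105 ± 7.60 CPM (n = 10) and 58.3 ± 5.23 CPM (n = 5).

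Among the RAB3 genes all 3 pairs changed unequally. RAB3B fell more than RAB3D by 1.19 on the log2 scale (SE 0.065, exact permutation adjusted p = 0.000703), and more than RAB3A by 1.83 (SE 0.13, the same adjusted p). The summed RAB3 level was 468 ± 15.9 CPM (n = 10) in R1881 + DMSO and 260.0 ± 4.99 CPM (n = 5) with enzalutamide. RAB4A fell more than RAB4B by 1.10 (SE 0.21), RAB6B rose more than RAB6A by 0.46 (SE 0.044), and RAB5A fell more than RAB5B by 0.22 (SE 0.034), with the same adjusted p from the exact permutation test. For RAB1A and RAB1B the change differed by 0.08 (SE 0.11, exact permutation p = 0.464), so no inequality was detected between them, and for RAB9A and RAB9B the adjusted p was 0.054 with the exact permutation test.

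**Figure D3:**
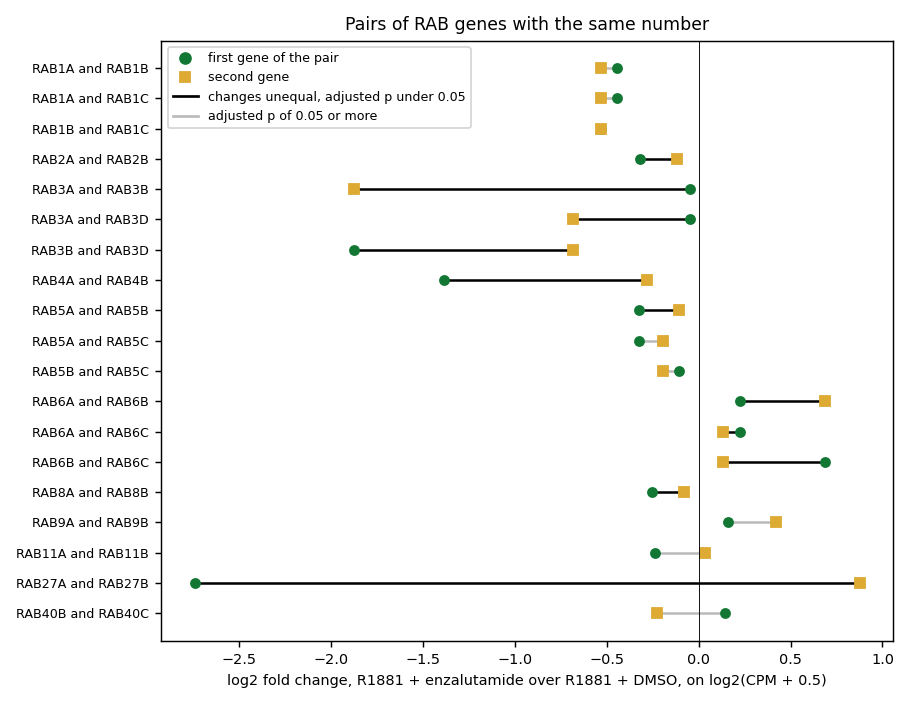
Log2 fold change (x axis, R1881 + enzalutamide over R1881 + DMSO, on log2(CPM + 0.5)) of both genes of each of the 19 pairs of RABs with a common number (y axis); circles mark the first gene, squares the second, and a black line joins the 11 pairs whose changes were unequal. The RAB27A and RAB27B line is the longest and crosses 0.

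By level per length, the most abundant RAB RNAs in both groups were RAB1B (199 CPM/kb of canonical transcript in R1881 + DMSO and 138 with enzalutamide) and RAB7A (119 and 133). RAB25, which was in the third place over all libraries pooled (76.1 CPM/kb), did not hold that place in either group. In R1881 + DMSO, RAB11A (79.4 CPM/kb) stood above RAB25 (74.5), and with enzalutamide RAB6A (82.9) and RAB10 (82.6) did so (RAB25 at 79.4). The order also depends on the length used, since over all libraries with all annotated exons of a gene RAB7A stood at 37.5 CPM/kb and RAB11A at 65.0. RAB1B was first with either length (174 CPM/kb by all exons).

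The genes that load, switch off, prenylate or are recruited by RABs were described with a list of 157 regulators and effectors, of which 146 had a row and were tested. Of these, 53 were lower (36.3%, against 32.7% of all genes) and 41 higher (28.1%, against 29.8%), with a median log2 fold change of -0.05. With equal library totals the counts were 41 lower and 56 higher. GTPase-activating proteins were lower in 16 of 35 and higher in 5, effectors lower in 20 and higher in 18 of 55, exchange factors lower in 13 and higher in 17 of 48, and prenylation and recycling factors lower in 4 and higher in 1 of 8.

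Effectors of RAB27 were among the genes with the widest changes. MLPH (melanophilin), which links RAB27A to myosin, fell from 145 ± 14.7 CPM (n = 10) to 59.8 ± 4.05 CPM (n = 5), a log2 fold change of -1.26 (limma adjusted p = 3.35e-13). SYTL2, a synaptotagmin-like tether of RAB27 vesicles, rose from 7.24 ± 1.02 to 61.4 ± 3.17 CPM, a log2 fold change of 3.01 (limma adjusted p = 8.60e-18). MYRIP, which binds RAB27A and myosin, rose from 23.6 ± 0.665 to 89.2 ± 4.20 CPM, a log2 fold change of 1.89 (limma adjusted p = 4.62e-20).

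Further effectors in the list were chosen for description after their values were seen. Of those of RAB27, SYTL1 was lower (-0.51) and SYTL3 higher (1.02, at 0.892 and 2.28 CPM), while SYTL4 (0.08) and UNC13D (0.25) did not pass the test. The listed effector RPH3AL was lower (-0.30). MICAL1, a RAB-binding actin oxidase, had the largest change of the effectors, from 258 ± 36.9 CPM (n = 10) to 26.3 ± 2.90 CPM (n = 5), a log2 fold change of -3.27 (limma adjusted p = 2.24e-18).

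Of the GTPase-activating proteins, TBC1D8 (log2 fold change -1.91) and TBC1D1 (-1.79), the latter a regulator of GLUT4 traffic, fell most, TBC1D1 from 229 ± 8.31 to 65.8 ± 2.04 CPM. SGSM1 (0.65) and TBC1D2B (0.40) rose most. Of the exchange factors, DENND1B, which acts on RAB35, rose from 33.4 ± 3.52 to 121 ± 9.20 CPM (log2 fold change 1.85), and SH3BP5, which acts on RAB11, rose by 0.98. ANKRD27, an exchange factor for RAB21 and partner of RAB32, was lower (-0.56), as was the TRAPP subunit TRAPPC11 (-0.43). Among the prenylation factors, the escort protein CHM (-0.30) and RABGGTA, a subunit of the prenylating enzyme, (-0.29) were lower, and CHML, the second escort protein, was higher (0.34).

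**Figure D4:**
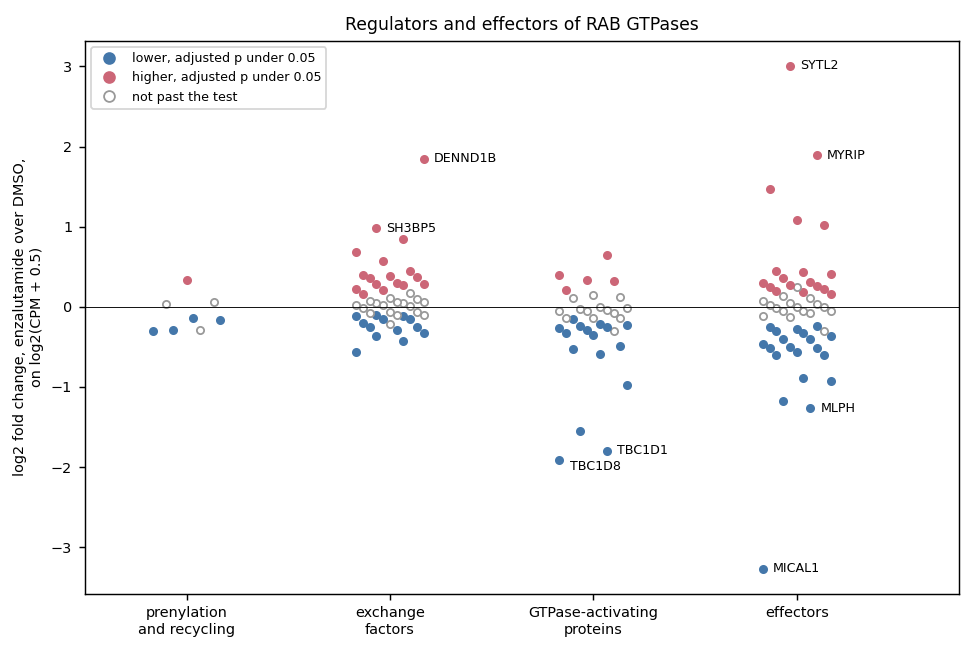
Log2 fold change (y axis, R1881 + enzalutamide over R1881 + DMSO, on log2(CPM + 0.5)) of the 146 tested regulators and effectors of RABs, in 4 classes on the x axis; each point is a gene, blue if lower and red if higher at an adjusted p under 0.05, open grey otherwise. SYTL2, MYRIP and DENND1B stand at the top and MICAL1, TBC1D8 and TBC1D1 at the bottom.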

How the data were processed

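Per the labels, poly(A) RNA was made into libraries with a stranded kit and sequenced as single-end reads. The authors mapped the reads to GRCh38 with STAR and counted them with featureCounts; tool versions other than bcl2fastq 2.17, the annotation, the use of strand and the handling of multi-mapped reads were not given in the sources used here. Deposited values are a normalized signal per gene and library, called CPM, whose columns summed to 985580 to 1078567. All values (100%) were whole multiples of 1 read within a tolerance of 0.01.

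A mean of 0.5 CPM or more was required for testing (17046 genes, including all 52 RAB genes) on log2(CPM + 0.5) with limma 3.58.1 (trend) in R 4.3.3, with treatment as the only term and Benjamini-Hochberg adjustment over all genes. Fold changes on this scale understate those of low genes. The RAB genes with the 8 lowest and 8 highest called fold changes are given by library, and in each regulator class the 2 lowest and 2 highest. edgeR 4.0.16 and DESeq2 1.42.0 were run on the recovered reads as alternatives. Members and gene lists were chosen with earlier results of these data known. Levels per length used GENCODE v44 lengths; sharing between genes was counted over 50-base words of transcripts. Replicates differed beyond sampling noise in every pair (lowest chi-square per degree of freedom 1.635). The role groups come from general knowledge.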

Additional observations from a re-analysis of the deposited data

Results flagged for a closer look

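In 7 of 104 groups of libraries (each RAB gene in each treatment), the highest or lowest library stood apart by Dixon's criterion, where chance flags about 1 in 20 groups (5.2 of 104). R1881 + enzalutamide replicate 2 was the library set apart in 4 of them. In it RAB22A was low (50.3 CPM, next 55.3), RAB6C was low (94.4 CPM, next 103), RAB6A was low (254 CPM, next 279) and RAB17 was high (41.2 CPM, next 35.1). Without this library the log2 fold changes were -0.11, 0.16, 0.25 and 0.39, and all 4 genes stayed past the limma test.

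In R1881 + enzalutamide replicate 1, RAB32 was high (7.45 CPM, next 5.53) and RAB8A was low (55.3 CPM, next 62.4). Without it the log2 fold changes were -0.35 for RAB32 and -0.22 for RAB8A, both past the test. In R1881 + DMSO replicate 6, RAB11B was high (46.2 CPM, next 34.8), and without that library its log2 fold change was 0.10, not past the test.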

How the results depend on the processing

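Under 28 alternatives, 30 of the 40 called RAB genes stayed called in the same direction and 10 lost the call in at least 1, while none reversed; 9 of the 12 uncalled genes were called in at least 1. The lower and higher counts (22 and 18) became 17 and 22 with equal library totals, 20 and 20 with edgeR, 21 and 18 with DESeq2, and 22 and 13 with a minimum mean of 5 CPM, where fewer genes were tested. Over all genes, the lower and higher counts went from 5577 and 5083 to 4288 and 6629 with equal totals and 4948 and 5796 with edgeR. They were 5351 and 5201 with DESeq2 and 4784 and 3513 with the minimum of 5 CPM. Leaving out single libraries gave 21 to 23 lower and 17 to 19 higher RAB genes. Equal totals moved the median of all genes from -0.01 to 0.08 on the log2 scale. Title numbers did not pair the libraries (5 correlations from -0.07 to 0.07; last digits of the library numbers -0.42 to 0.67, 2 of 10 over 0.1), and a replicate block on the title number gave 19 lower and 17 higher RAB genes, on the last digit 21 and 18.

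The count of RAB genes differing between the R1881 + DMSO series (1) was 2 with equal totals and 0 to 3 without single libraries, being 0 without replicate 5, 7, 9 or 10, 2 without replicate 2 and 3 without replicate 3. Calls that turned on 1 library were those of RAB12 (-0.13 without R1881 + enzalutamide replicate 2), RAB9A (0.14 and 0.13 without replicates 1 and 3 of that group), RAB23 (0.15 without replicate 5 of that group), and RAB2B (-0.11 to -0.10 without R1881 + DMSO replicate 2, 3 or 8 or R1881 + enzalutamide replicate 2, 3 or 4). RAB4B (-0.42 without R1881 + enzalutamide replicate 2), RAB33B (-0.15 without R1881 + enzalutamide replicate 1) and RAB31 (0.28 and 0.29 without R1881 + DMSO replicates 3 and 7) gained one. Unequal pairs numbered 10 to 12. Among the RAB genes, signs turned only for uncalled ones. With equal totals RAB8B became 0.011, RAB21 0.023, RAB3A 0.043 and RAB18 0.081. Against libraries 51 to 55 RAB3A was 0.078. RAB18 was 0.0018 with TMM, 0.032 with edgeR, 0.0015 with DESeq2, 0.036 against libraries 71 to 75 and -0.040 to 0.024 without single libraries, above 0 without R1881 + enzalutamide replicate 2. RAB11B was -0.10 against libraries 71 to 75, -0.057 to 0.13 without single libraries, being -0.0045 without R1881 + DMSO replicate 10 and lowest without R1881 + enzalutamide replicate 2. The cause was not tested. Intervals of RAB4B, RAB40C and RAB11B were the widest among the uncalled genes, so small changes there were not detectable.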
